A study of Homo sapiens with 12 samples.

Results

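The SOX transcription factors described here are SOX4, SOX5, SOX6, SOX9, SOX11, SOX12, SOX13, SOX15 and SOX18, taken as the 9 rows with these gene names among 50868 genes of the deposited count table. They were chosen by name with earlier results on the expression changes in these same libraries in view, with no stated threshold, so the changes of the 9 genes are a description and not independent evidence. They are therefore set beside the whole SOX family, the 19 genes whose symbol is SOX and a number. RNA-seq was done on MG63, a long-established line of human osteosarcoma cells, in 12 libraries of 4 groups with 3 libraries each. In the compound experiment the cells received 1 µM of Anticarin-Beta, a plant cardiac glycoside, or vehicle for 18 h. In the siRNA experiment they were transfected with siRNA against CCT4, a subunit of the CCT chaperonin, or with the Allstar control siRNA for 2 days. Cells of all groups grew in DMEM with serum. Whether replicate libraries stem from separate cultures is not in the labels, and p-values here measure only their spread, which may be technical.

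SOX proteins bind the minor groove of DNA through an HMG box, a domain named after the high mobility group proteins, and bend the helix there. They are sorted into groups by sequence, and most act with partner factors and set cell fate in development. SOX9 is the master regulator of cartilage and, with SOX5 and SOX6, turns on the cartilage matrix genes in the mouse. SOX4, SOX11 and SOX12 form the SoxC group of mesenchymal and neural progenitors, and SOX18 belongs to the SoxF group of blood and lymph vessels. In mouse precursor cells of the skeleton SOX9 also holds back RUNX2, the master regulator of bone.

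Library totals ran from 13393750 to 17492095 counts. CCT4, the gene the siRNA was aimed at, averaged 206 ± 9.18 CPM (counts per 1e+06 counts, scaled between libraries by the trimmed mean of M-values) in the libraries labelled CCT4 siRNA and 177 ± 14.4 CPM in control siRNA libraries (SD, n = 3 each), with a fitted log2 fold change of 0.22 ± 0.095 SE (edgeR adjusted p = 0.129). The mean was thus no lower under the targeting siRNA, and every statement on that group refers to the libraries so labelled. CCT4 mRNA averaged 82.3 ± 8.49 CPM in anticarin-beta libraries and 236 ± 22.9 CPM in vehicle libraries (SD, n = 3 each). The cell line label was set beside lists of marker genes of several cell types. The 6 bone and mesenchymal markers were all expressed, with summed levels from 14277 to 15078 CPM in anticarin-beta, 8813 to 11473 CPM in vehicle, 4737 to 4951 CPM in CCT4 siRNA and 3678 to 3990 CPM in control siRNA libraries. The 5 chondrocyte markers summed to at most 0.80 CPM in any library, and COL9A1 was at 0 in all of them. The 4 epithelial markers summed to between 112 and 169 CPM across libraries. KRT8 and KRT18 made up most of this, with EPCAM and CDH1 at 0.335 CPM or less. The 3 blood cell markers summed to between 6.87 and 16.1 CPM, and the 5 endothelial markers to between 6.28 and 15.7 CPM. Markers outside the bone list were thus not all silent.

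Per base of exon, SOX12, SOX9 and SOX4 had the highest levels of the 9 genes in anticarin-beta and in both siRNA groups, and SOX12, SOX4 and SOX18 in vehicle libraries. SOX12 averaged 20.4 TPM (transcripts per 1e+06 transcripts, from counts per base of exon) in anticarin-beta, 51.8 in vehicle, 67.0 in CCT4 siRNA and 77.2 in control siRNA libraries. SOX9 averaged 22.9 TPM in anticarin-beta, 15.4 in vehicle, 53.7 in CCT4 siRNA and 58.8 in control siRNA libraries. SOX4 averaged 42.1, 25.9, 24.7 and 28.2 TPM in the same groups. In anticarin-beta libraries the highest mean was thus that of SOX4, and in the other 3 groups it was that of SOX12. SOX13, SOX11, SOX15 and SOX18 had group means between 0.145 and 25.4 TPM, and the group means of SOX5 and SOX6 were at most 0.379 TPM.

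**Figure D1:**
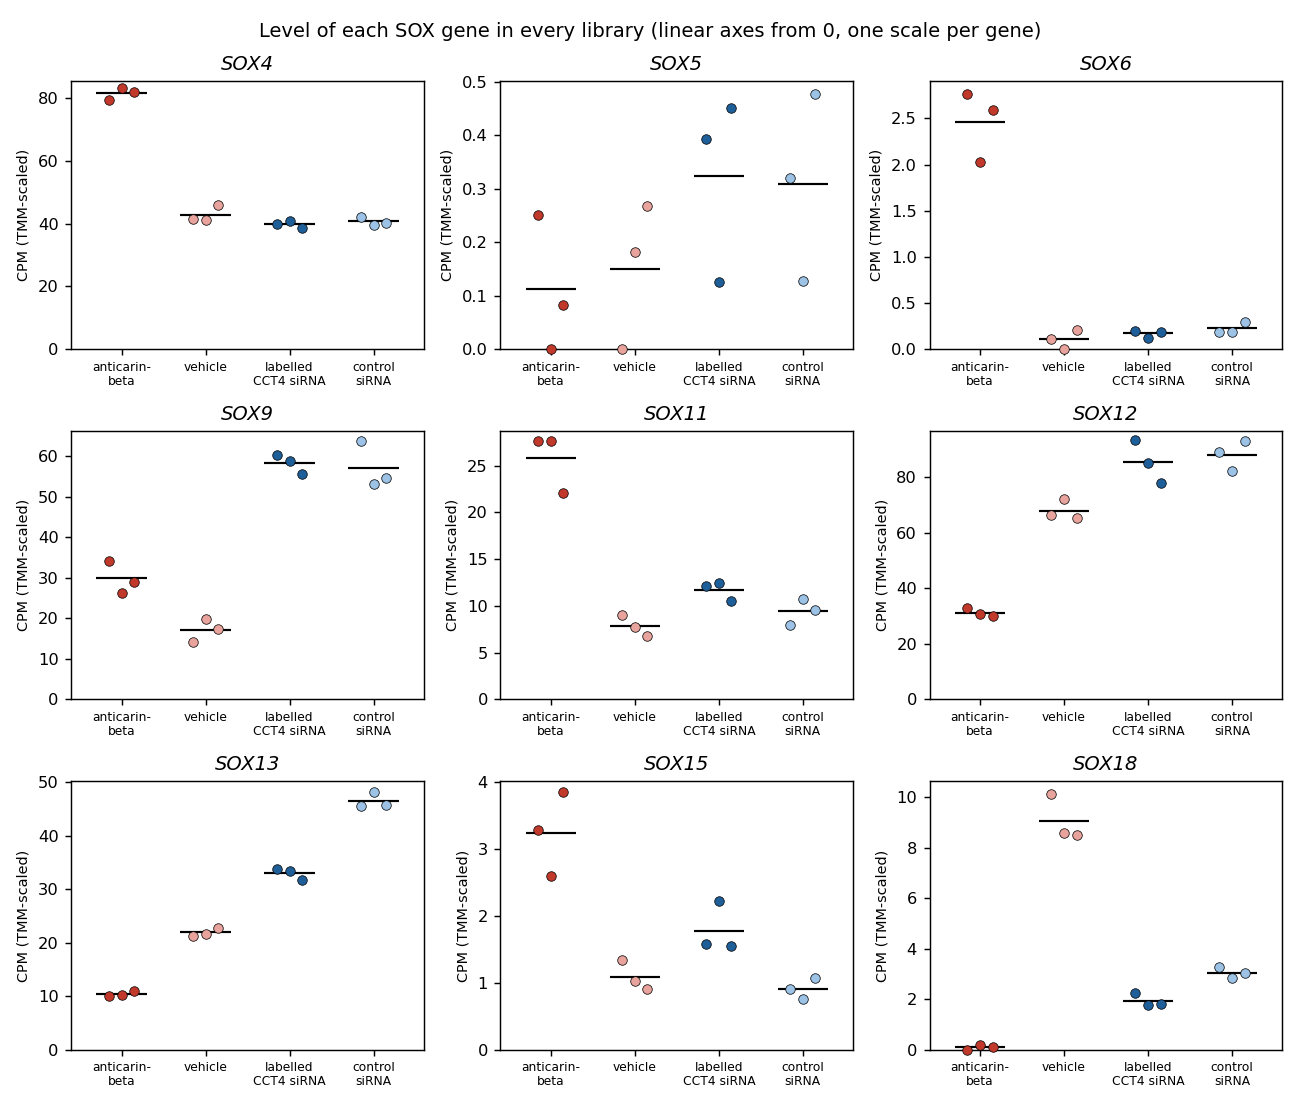
Level of each of the 9 SOX genes (y axis, CPM scaled between libraries, one linear scale per gene starting at 0) in the 4 groups, with 1 point per library and a line at each group mean. SOX4, SOX6, SOX9, SOX11 and SOX15 lie higher in all 3 anticarin-beta libraries than in the 3 vehicle libraries, SOX12, SOX13 and SOX18 lie lower, and SOX5 overlaps.

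With anticarin-beta the 9 genes moved in both directions. SOX4, SOX6, SOX9, SOX11 and SOX15 rose and SOX12, SOX13 and SOX18 fell, while SOX5 had too few counts for a test. Of the 8 genes tested, 5 were called higher and 3 lower at an adjusted p under 0.05 (edgeR quasi-likelihood test, Benjamini-Hochberg over 17717 genes). Over all genes tested 73.0% were called in this comparison, 34.9% as higher and 38.0% as lower, so a call by itself is no particular property of a SOX gene. SOX6 passed the minimum of 10 counts only through its anticarin-beta libraries and had to differ to be tested at all. The sizes ranged from a 1.74-fold rise of SOX9 to a ratio of 105 in the fall of SOX18. The groups did not overlap in the compound experiment for 74.6% of all genes and in the siRNA experiment for 41.8%. With library totals in place of the scaling factors the median change of all genes with anticarin-beta was −0.48 on the log2 scale in place of −0.063, and 4292 genes were called higher and 8959 lower in place of 6186 and 6740. Each of the 8 tested SOX genes kept its direction and its call under that setting.

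SOX4 and SOX11, the strong transcriptional activators among the SoxC factors, rose, and SOX12, the weakest activator of that group, fell. SOX4 lies on chromosome 6 (chr6:21592768-21598619, + strand, GRCh38), SOX11 on chromosome 2 (chr2:5692667-5701385, + strand) and SOX12 on chromosome 20 (chr20:325595-330224, + strand). All 3 are genes of 1 exon, a structure found in 5.68% of coding genes. SOX4 stood at 79.5, 83.2 and 81.8 CPM in anticarin-beta libraries and at 41.4, 41.3 and 46.1 CPM in vehicle libraries. It stood at 39.8, 41.0 and 38.8 CPM in the libraries labelled CCT4 siRNA and at 42.3, 39.6 and 40.2 CPM in control siRNA libraries. Every anticarin-beta library was high, and the 9 other libraries lay in a narrow band, in which the control siRNA range overlapped those of the other 2 groups. The fitted change with anticarin-beta was 1.90-fold (log2 fold change 0.93 ± 0.069 SE, edgeR adjusted p = 8.12e-08).

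SOX11, best known from developing neurons, stood at 27.6, 27.6 and 22.1 CPM in anticarin-beta libraries and at 9.06, 7.78 and 6.79 CPM in vehicle libraries. In the siRNA experiment it stood at 12.2, 12.4 and 10.5 CPM in the libraries labelled CCT4 siRNA and at 8.01, 10.8 and 9.60 CPM in control siRNA libraries. The anticarin-beta libraries were again apart from all others, whose group ranges overlapped from one group to the next in the order of their means. SOX11 rose 3.27-fold with the compound (log2 fold change 1.71 ± 0.15 SE, adjusted p = 3.74e-07). Its exon shares 74 bases with AC108025.2 on the same strand, a gene that had 0 to 4 counts per library.

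SOX12 moved the other way. It stood at 33.0, 30.6 and 30.2 CPM in anticarin-beta libraries and at 66.4, 72.3 and 65.3 CPM in vehicle libraries. In the siRNA experiment it stood at 93.4, 85.2 and 77.9 CPM in the libraries labelled CCT4 siRNA and at 88.9, 82.3 and 93.1 CPM in control siRNA libraries. The 2 siRNA groups overlapped and lay above the vehicle group, which lay above the anticarin-beta group. The fall with anticarin-beta was 2.17-fold (log2 fold change −1.12 ± 0.086 SE, adjusted p = 1.04e-07).

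SOX13 fell with the compound as SOX12 did, by 2.12-fold (log2 fold change −1.08 ± 0.080 SE, adjusted p = 7.01e-08), and was the only one of the 9 genes called lower in the libraries labelled CCT4 siRNA as well. The 250 bases upstream of the annotated starts of these 2 genes are shown because both fell with similar size and their windows are free of annotated exons. They come from RefSeq on GRCh38.p14, + strand, with the RefSeq start just after the last base, and capitals mark matches on either strand to the motifs named below. The SOX12 window is chr20:325302-325551 and the SOX13 window is chr1:204072865-204073114.
SOX12: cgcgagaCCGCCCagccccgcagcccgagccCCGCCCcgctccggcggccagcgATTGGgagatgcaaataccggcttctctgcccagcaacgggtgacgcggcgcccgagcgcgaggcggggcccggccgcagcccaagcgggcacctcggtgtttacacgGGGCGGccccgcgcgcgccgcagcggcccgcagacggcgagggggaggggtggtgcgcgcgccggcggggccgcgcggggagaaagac
SOX13: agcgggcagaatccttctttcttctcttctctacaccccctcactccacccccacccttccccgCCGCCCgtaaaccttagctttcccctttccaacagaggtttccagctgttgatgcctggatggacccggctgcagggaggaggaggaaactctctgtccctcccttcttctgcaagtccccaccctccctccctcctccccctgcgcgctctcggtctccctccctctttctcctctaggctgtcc
The searched motifs were ACAAT and ACAAAG (core sites of SOX and TCF proteins), CCAAT (bound by NF-Y), GGGCGG (bound by SP1), TATAAA (the TATA box), TGANTCA (AP-1) and TGACGTCA (CREB). The SOX12 window had a GC content of 79.2% with 3 matches to GGGCGG and 1 to CCAAT, and the SOX13 window had 60.8% with 1 match to GGGCGG. Of all 35116 windows of this length, 42.6% held GGGCGG and 32.0% held CCAAT, and their median GC content was 58.0%. Neither window held ACAAT or ACAAAG, which 24.6% and 13.7% of all windows held. TATAAA occurred in 10.7% of all windows, TGANTCA in 6.57% and TGACGTCA in 1.65%, and in neither of the 2 shown. A match is a run of letters and not a binding site. Windows were found for 5 of the 9 genes, namely SOX4, SOX5, SOX6, SOX12 and SOX13.

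SOX13, SOX5 and SOX6 are the SoxD factors, which carry a coiled coil for pairing and no known activation domain of their own. SOX13 (chr1:204073115-204127743, + strand, GRCh38) stood at 10.1, 10.2 and 10.9 CPM in anticarin-beta libraries and at 21.3, 21.7 and 22.8 CPM in vehicle libraries. It stood at 33.7, 33.5 and 31.8 CPM in the libraries labelled CCT4 siRNA and at 45.5, 48.3 and 45.7 CPM in control siRNA libraries. The 4 groups did not overlap, with anticarin-beta lowest, then vehicle, then CCT4 siRNA, and control siRNA highest.

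SOX6, on chromosome 11 (chr11:15966449-16739591, − strand), had 33, 22 and 31 counts in anticarin-beta libraries and 2, 0 and 4 counts in vehicle libraries. It had 3, 2 and 3 counts in the libraries labelled CCT4 siRNA and 3, 3 and 5 counts in control siRNA libraries. Outside the anticarin-beta group the gene was therefore near the limit of detection. Summed over libraries, 86 counts with anticarin-beta against 6 with vehicle gave a ratio of 22.3 relative to the scaled library sizes (95% counting interval 9.85 to 62.5, which covers counting error only). The fitted log2 fold change was 4.38 ± 0.47 SE (adjusted p = 2.40e-06). SOX6 shares 219 exonic bases with C11orf58 on the opposite strand, a gene with 1708 to 2799 counts in anticarin-beta and 1458 to 2223 counts in vehicle libraries that itself changed by a log2 fold change of 0.95 ± 0.18. Whether counting used the strand is not known from the notes and labels, so the SOX6 values are uncertain to the extent that reads of that overlap were counted for it. SOX5, the closest relative of SOX6 (chr12:23529500-24562544, − strand), had 3, 0 and 1 counts in anticarin-beta libraries and 0, 3 and 5 counts in vehicle libraries. It had 6, 2 and 7 counts in the libraries labelled CCT4 siRNA and 5, 2 and 8 counts in control siRNA libraries, and no difference was detectable at this depth (ratio of anticarin-beta to vehicle 0.78, 95% counting interval 0.17 to 2.91).

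SOX9, the cartilage regulator of the SoxE group (chr17:72121020-72126420, + strand), rose with anticarin-beta by 1.74-fold. It stood at 34.2, 26.3 and 28.95 CPM in anticarin-beta libraries and at 14.1, 19.8 and 17.5 CPM in vehicle libraries. It stood at 60.2, 58.7 and 55.7 CPM in the libraries labelled CCT4 siRNA and at 63.7, 53.2 and 54.5 CPM in control siRNA libraries. The anticarin-beta group lay above the vehicle group without overlap, and both lay below the 2 siRNA groups, which overlapped. The log2 fold change with anticarin-beta was 0.80 ± 0.13 SE (adjusted p = 1.28e-04). With library totals in place of the scaling factors it was 0.39 (edgeR adjusted p = 0.0155). SOX9 was 3.33 times as abundant in control siRNA as in vehicle libraries by mean CPM. These 2 control groups belong to different experiments and differ at least in vehicle, in transfection and in time (18 h against 2 days). Such differences cannot be told apart. The gap in SOX9 between the 2 groups exceeded its rise with the compound. For 55.9% of all genes the ranges of the 2 control groups did not overlap.

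SOX18, a SoxF factor of endothelial cells (chr20:64047582-64049641, − strand), was nearly lost with anticarin-beta. It had 0, 2 and 1 counts in anticarin-beta libraries and 190, 142 and 159 counts in vehicle libraries. It had 34, 28 and 28 counts in the libraries labelled CCT4 siRNA and 51, 45 and 51 counts in control siRNA libraries. In CPM the 4 groups did not overlap, with anticarin-beta lowest at 0.0895 ± 0.0926 CPM and vehicle highest at 9.06 ± 0.919 CPM, and between them CCT4 siRNA at 1.93 ± 0.253 CPM and control siRNA at 3.05 ± 0.207 CPM (SD, n = 3 each). The fitted log2 fold change with anticarin-beta was −6.58 ± 0.36 SE (adjusted p = 3.90e-09), a value that depends on the prior count since the treated libraries held 3 counts in all. From the summed counts relative to the scaled library sizes, vehicle exceeded anticarin-beta by a ratio of 105, with a 95% counting interval of 35.7 to 511. In a bulk sample, fewer cells that express a gene and less RNA per cell cannot be told apart.

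Endothelial markers did not move as one with SOX18. The 5 markers summed to between 6.28 and 8.37 CPM in anticarin-beta libraries and between 6.50 and 8.77 CPM in vehicle libraries. PECAM1, an adhesion receptor of endothelial cells, fell to 2.20 ± 0.512 CPM in anticarin-beta against 4.52 ± 0.545 CPM in vehicle libraries (edgeR adjusted p = 4.16e-04), while VWF, the carrier of a clotting factor, averaged 0.894 ± 0.0484 CPM with anticarin-beta and 0.221 ± 0.138 CPM with vehicle (SD, n = 3 each). VWF reached the minimum for a test only with its anticarin-beta libraries, the group in which it was high. Its rise is thus no independent support. CDH5, the junction cadherin, averaged 4.11 ± 0.718 CPM with anticarin-beta and 2.52 ± 0.455 CPM with vehicle. The CDH5 call (edgeR adjusted p = 0.0393) was lost under 10 of 21 alternatives, at adjusted p up to 0.374. KDR and TEK had at most 0.321 CPM in the compound experiment. The part of these genes in the SOX18 values was not tested.

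SOX15, the only SoxG member, is known in the mouse from muscle precursors and trophoblast. It lies on chromosome 17 (chr17:7588178-7590170, − strand) and stood at 3.27, 2.59 and 3.85 CPM in anticarin-beta libraries and at 1.33, 1.03 and 0.91 CPM in vehicle libraries. It stood at 1.57, 2.21 and 1.54 CPM in the libraries labelled CCT4 siRNA and at 0.90, 0.76 and 1.07 CPM in control siRNA libraries. In both experiments all 3 libraries of the treated group were above all 3 of the control group. SOX15 rose 2.96-fold with anticarin-beta (log2 fold change 1.57 ± 0.25 SE, adjusted p = 9.65e-05). Its last exon shares 15 bases with MPDU1 on the opposite strand, a gene with 259 to 326 counts in anticarin-beta and 255 to 345 in vehicle libraries. Relative to the scaled library sizes MPDU1 itself rose with anticarin-beta, by a log2 fold change of 0.72 ± 0.17 SE.

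Of the SOX genes outside the list, 3 of 10 had enough counts for a test. All 3 were called with anticarin-beta, beside 73.0% of all genes. The SoxF genes SOX7 and SOX17 fell as SOX18 did. SOX7 averaged 4.602 ± 1.04 CPM in anticarin-beta and 10.1 ± 0.689 CPM in vehicle libraries (SD, n = 3 each; log2 fold change −1.13 ± 0.15 SE, edgeR adjusted p = 1.72e-05). SOX17, a factor of endoderm and arteries, averaged 2.28 ± 0.768 CPM in anticarin-beta and 6.01 ± 0.498 CPM in vehicle libraries (log2 fold change −1.41 ± 0.23 SE, adjusted p = 1.21e-04). The falls were 2.18-fold for SOX7 and 2.65-fold for SOX17, against the ratio of 105 for SOX18. SOX7 shares 1268 exonic bases with PINX1 on the same strand, so its reads are uncertain. SOX8, the SoxE relative of SOX9, averaged 1.21 ± 0.108 CPM with anticarin-beta and 0.497 ± 0.0644 CPM with vehicle, a rise of 2.41-fold (adjusted p = 5.86e-04). The other 7 genes (SOX1, SOX2, SOX3, SOX10, SOX14, SOX21 and SOX30) had at most 14 counts in any library, and SOX10 and SOX14 were at 0 in all 12. Over the whole family 6 of the 11 tested genes were called higher and 5 lower, beside 34.9% and 38.0% of all genes. SOX6, among the 6, passed the minimum for a test only through its anticarin-beta libraries.

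**Figure D2:**
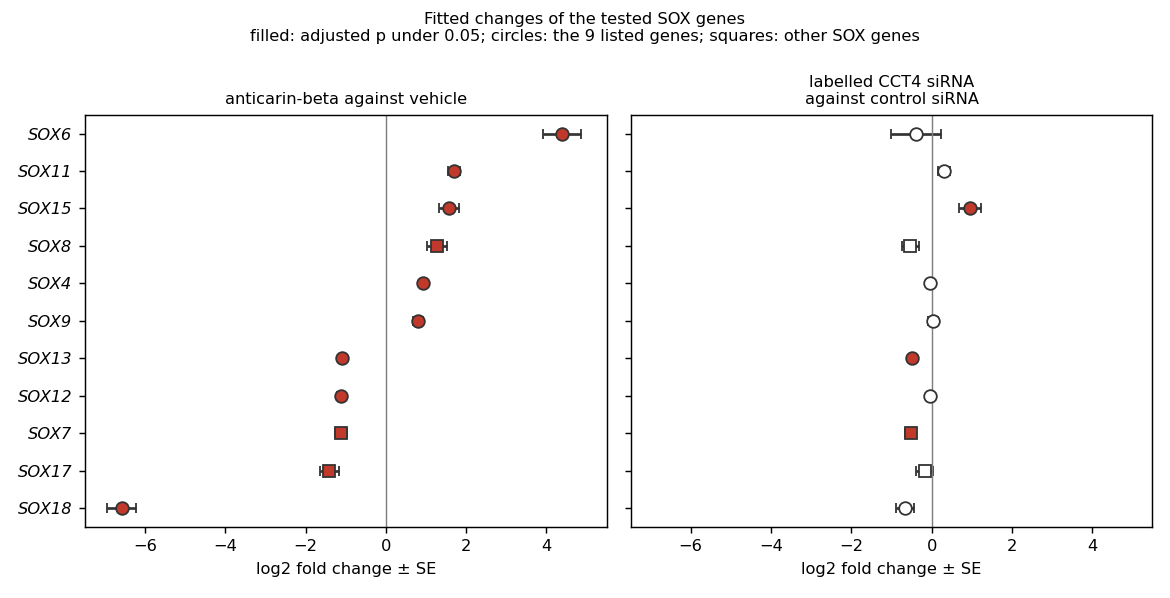
Fitted log2 fold changes (x axis, ± SE) of the 11 tested SOX genes for anticarin-beta against vehicle and for CCT4 siRNA against control siRNA. Circles mark the 8 of the 9 listed genes that were tested, squares the other SOX genes, and filled symbols an adjusted p under 0.05. With anticarin-beta every gene is filled, from −6.58 for SOX18 to 4.38 for SOX6, beside 73.0% of all genes called. With CCT4 siRNA all lie between −0.66 and 0.96 and 3 are filled, beside 19.7% of all genes called.

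The libraries labelled CCT4 siRNA differed from control siRNA in fewer SOX genes. SOX13 fell to 33.0 ± 1.09 CPM against 46.5 ± 1.54 CPM in control siRNA libraries (SD, n = 3 each), 1.41-fold (log2 fold change −0.50 ± 0.074 SE, edgeR adjusted p = 7.62e-04). SOX15 rose 1.94-fold, to 1.78 ± 0.380 CPM against 0.91 ± 0.157 CPM (log2 fold change 0.96 ± 0.27 SE, adjusted p = 0.0265). These were the only 2 of the 8 tested members called, 1 in each direction, beside 19.7% of all genes, of which 10.7% were called higher and 9.04% lower. With library totals 902 of all genes were called higher and 2800 lower, in place of 1892 and 1601, and the members were 1 higher and 2 lower. The SOX15 call was lost without control siRNA replicate 1 (log2 fold change 0.94, edgeR adjusted p = 0.0768), without control siRNA replicate 2 (0.84, adjusted p = 0.0964) and without CCT4 siRNA replicate 2 (0.77, adjusted p = 0.113).

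SOX18 was lower in all 3 libraries labelled CCT4 siRNA than in all 3 control siRNA libraries, with a log2 fold change of −0.66 ± 0.22 SE and an adjusted p of 0.0557, on the side of no call. It was called without anticarin-beta replicate 1 (edgeR adjusted p = 0.0281) or replicate 2 (adjusted p = 0.0429), which enter only the shared estimate of the spread. Groups without overlap in this experiment were found for 41.8% of all genes. SOX4 (−0.030 ± 0.070), SOX9 (0.027 ± 0.13), SOX12 (−0.044 ± 0.083), SOX11 (0.31 ± 0.15) and SOX6 (−0.40 ± 0.62) were not called, with adjusted p between 0.178 and 0.909. SOX6, with 2 to 5 counts per library, had the widest SE. Outside the list SOX7 fell 1.43-fold, to 13.2 ± 0.459 CPM against 18.9 ± 0.988 CPM in control siRNA libraries (adjusted p = 0.0176). This call was lost without control siRNA replicate 1 (edgeR adjusted p = 0.0538) or 2 (adjusted p = 0.0627) and without CCT4 siRNA replicate 1 (adjusted p = 0.0526) or 2 (adjusted p = 0.0637).

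The difference between the responses was tested directly, as anticarin-beta against vehicle minus CCT4 siRNA against control siRNA. It was called for 7 of the 8 tested members, 4 upwards and 3 downwards, beside 59.9% of all genes (27.5% upwards and 32.4% downwards). SOX6, among the 4, passed the minimum only through its anticarin-beta libraries and had to differ to be tested at all. With library totals 3724 of all genes were called upwards and 7283 downwards, in place of 4866 and 5744. For SOX4 it was 0.96 ± 0.098, for SOX9 0.78 ± 0.18, for SOX11 1.40 ± 0.21 and for SOX6 4.78 ± 0.82 on the log2 scale. For SOX12 it was −1.08 ± 0.12 and for SOX18 −5.92 ± 0.46. SOX13 fell in both experiments, and more with anticarin-beta by 0.59 ± 0.11 (log2 difference −0.59, adjusted p = 4.69e-04). SOX15 rose in both, and the difference of 0.61 ± 0.37 was not called (adjusted p = 0.174). That p does not show that the responses were alike.

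The make-up of the SOX transcripts was then compared within libraries, as each gene's share of the summed SOX counts per base of exon. This share does not depend on the scaling between libraries. In anticarin-beta libraries SOX4 made up 36.8 ± 1.99% and SOX12 17.8 ± 0.47%, while in vehicle libraries SOX4 made up 17.6 ± 1.30% and SOX12 35.2 ± 1.27% (SD, n = 3 each). The 2 genes thus changed places, and the ranges of the 2 groups did not overlap for either. SOX9 made up 20.0 ± 2.04% in anticarin-beta and 10.4 ± 1.59% in vehicle libraries. SOX18 took 0.13 ± 0.14% of the SOX transcripts with anticarin-beta and 11.7 ± 1.35% with vehicle.

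The SoxF genes together (SOX7, SOX17 and SOX18) held 6.48% of the SOX transcripts in anticarin-beta and 25.4% in vehicle libraries. The SoxC genes together held 62.5% in anticarin-beta and 55.0% in vehicle libraries. In the siRNA experiment SOX12 made up 33.6 ± 1.23% in the libraries labelled CCT4 siRNA and 32.2 ± 1.51% in control siRNA libraries. SOX9 made up 27.0 ± 0.43% in the libraries labelled CCT4 siRNA and 24.5 ± 1.59% in control siRNA libraries. Here the ranges of SOX12 overlapped. Those of SOX9 lay just apart, from 26.5% upwards with CCT4 siRNA and up to 26.3% with control siRNA. SOX9 itself averaged 58.2 and 57.1 CPM in these groups and was not called (log2 fold change 0.027, edgeR adjusted p = 0.909). Its higher share thus went with a lower summed SOX level and not with more SOX9. The summed SOX level was 114 ± 3.72 TPM in anticarin-beta and 147 ± 1.33 TPM in vehicle libraries, and 199 ± 9.59 TPM in CCT4 siRNA and 240 ± 10.0 TPM in control siRNA libraries. With the length of 1 transcript per gene in place of all exons, the share of SOX13 exceeded that of SOX4 in both siRNA groups (15.4% against 11.4% with CCT4 siRNA and 19.6% against 10.5% with control siRNA). It was 7.14% in place of 3.69% in anticarin-beta and 13.6% in place of 7.10% in vehicle libraries. The share of SOX9 under that setting was 24.7% with CCT4 siRNA and 21.9% with control siRNA.

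**Figure D3:**
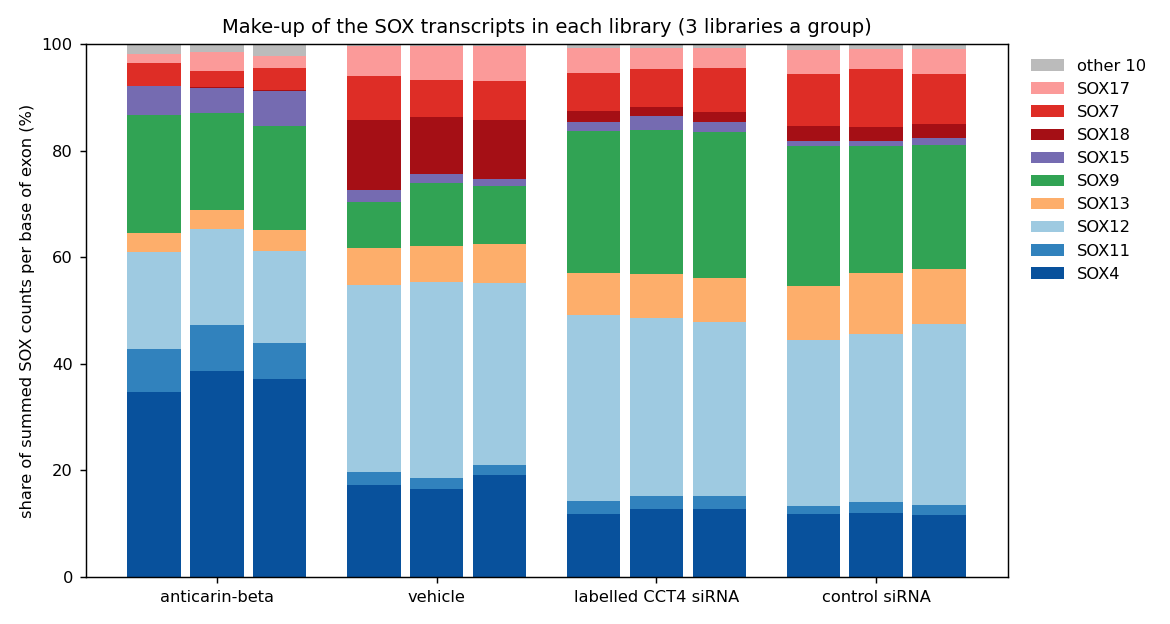
Share of each SOX gene (y axis, percent of the summed SOX counts per base of exon) in each of the 12 libraries, stacked, with 3 libraries per group on the x axis. SOX4 takes the largest part in anticarin-beta libraries (36.8% on average) and SOX12 in vehicle libraries (35.2%), and the SOX18 part is 0.13% in anticarin-beta and 11.7% in vehicle libraries.

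Across the 12 libraries, some genes followed a SOX gene closely in their pattern, as measured by the root mean square (RMS) difference of log2 CPM after each gene's mean was removed, among 12642 genes of at least 5 CPM. The nearest to SOX4 included ETFDH (0.0691) and EPAS1 (0.0724), and the nearest to SOX12 included PLEC (0.0864) and RPTOR (0.0965). SOX13 lay nearest to PARP9 (0.0982), PRICKLE3 (0.119) and TDRD7 (0.120). For SOX11 they were ZNF316 (0.133), PPP2CB (0.141) and EIF2AK3 (0.143), and for SOX9 C1QL1 (0.147), PPP4R1L (0.150) and NOL4L (0.155). SOX18 had no neighbour as close, with DHFRL1 at 0.241, ZNF18 at 0.260 and THNSL1 at 0.290. With library totals in place of the scaling factors, 15 of the 18 nearest genes, 3 for each of these 6 SOX genes, were found again. These distances describe 4 group means more than 12 separate libraries.

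Genes reported as targets of SOX9 in cartilage were mostly silent in MG63 cells. Of 16 such genes 5 were tested. With anticarin-beta 2 were called higher and 1 lower, beside 73.0% of all genes called in either direction. COL11A2, a chain of type XI collagen, averaged 67.1 ± 4.22 CPM in anticarin-beta and 14.5 ± 0.285 CPM in vehicle libraries (SD, n = 3 each), a rise of 4.61-fold (edgeR adjusted p = 3.82e-09). C2orf82, the cartilage proteoglycan gene also called SNORC, averaged 9.43 ± 0.872 CPM with anticarin-beta and 2.23 ± 0.189 CPM with vehicle, a rise of 4.20-fold, although it overlaps GIGYF2 on the same strand. The fall was that of MATN4, named here after its values were seen, at 0.207 ± 0.189 CPM with anticarin-beta and 0.657 ± 0.302 CPM with vehicle, and its call (adjusted p = 0.0385) was lost without vehicle replicate 1 (adjusted p = 0.0853) or 2 (0.110) and without anticarin-beta replicate 1 (0.121) or 3 (0.0660). COL2A1 and ACAN, which define cartilage matrix, had at most 0.16 CPM in the compound experiment. COL11A2 also rose in the libraries labelled CCT4 siRNA, to 16.1 ± 2.01 CPM against 9.95 ± 1.57 CPM in control siRNA libraries (1.61-fold, adjusted p = 0.00248), where SOX9 itself was not called.

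Of 8 genes reported as targets of SOX4 or SOX11, 7 were tested. With anticarin-beta 2 of them rose and 2 fell, beside 73.0% of all genes called. SEMA3C, a secreted guidance factor, averaged 159 ± 9.07 CPM with anticarin-beta and 33.5 ± 2.76 CPM with vehicle, and TNC, the matrix protein tenascin C, averaged 32.5 ± 1.14 CPM with anticarin-beta and 16.9 ± 4.33 CPM with vehicle (SD, n = 3 each). EZH2, the histone methyltransferase, and TEAD2, a partner of YAP, fell, with log2 fold changes of −0.61 ± 0.084 and −0.81 ± 0.15. The median change over the list with anticarin-beta was 0.059 on the log2 scale, beside −0.063 over all genes. With CCT4 siRNA edgeR called none of the 7 in the fit over all 4 groups, beside 19.7% of all genes. Of the 7, 1 had an unadjusted p under 0.05. TNC was called there by DESeq2, by limma-voom and by edgeR with each experiment alone (log2 fold change 0.42 ± 0.083 SE, edgeR adjusted p = 0.0114), in all under 5 of 21 alternatives.

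Of 10 genes reported as targets of SOX18, 7 were tested. With anticarin-beta 3 rose and 2 fell, beside 73.0% of all genes called. With library totals 2 were called higher and 4 lower. EFNB2, an ephrin of arteries, rose 19.2-fold, to 61.9 ± 2.89 CPM against 3.21 ± 1.38 CPM in vehicle libraries, in the samples in which SOX18 was near 0. ROBO4, an endothelial guidance receptor, fell to 4.997 ± 1.25 CPM against 17.1 ± 0.752 CPM, 3.43-fold, and NOTCH1 fell 1.44-fold (SD, n = 3 each; edgeR adjusted p = 8.72e-09, 1.72e-07 and 6.09e-04 for EFNB2, ROBO4 and NOTCH1). The list therefore did not move in 1 direction, and its median was −0.38 on the log2 scale. With CCT4 siRNA none of the 7 was called by edgeR, DESeq2 or limma-voom, and 1 had an unadjusted p under 0.05. Over all genes edgeR called 19.7% there. The other 2 that rose, named here after their values were seen, were DLL4, a Notch ligand (2.65 ± 0.396 CPM with anticarin-beta and 0.218 ± 0.137 CPM with vehicle), and VCAM1. The adhesion receptor VCAM1 averaged 1.39 ± 0.592 CPM with anticarin-beta and 0.58 ± 0.226 CPM with vehicle. Its call (edgeR adjusted p = 0.0449) was lost under 15 of 20 alternatives, at adjusted p up to 0.208. VCAM1 reached the minimum for a test only with its anticarin-beta libraries, the group in which it was high, so its call is no independent support.

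Of the 16 tested partners and regulators of SOX proteins, 11 were called higher and 2 lower with anticarin-beta (10 and 5 with library totals). These counts stand beside 73.0% of all genes called in this comparison, 34.9% as higher and 38.0% as lower. The list's median was 0.81 on the log2 scale, beside −0.063 over all genes. ARID5B, a SOX9 cofactor in mouse cartilage, averaged 598 ± 24.9 CPM in anticarin-beta and 151 ± 12.8 CPM in vehicle libraries (SD, n = 3 each). The histone acetyltransferases CREBBP and EP300 rose 3.28-fold and 3.64-fold, and FBXW7, the ubiquitin ligase subunit that marks SOX9 for degradation, rose 4.78-fold (adjusted p = 1.09e-09, 2.73e-09 and 2.81e-08). In the libraries labelled CCT4 siRNA 4 genes of the list were called higher and 1 lower, a share of the 16 to be read beside the 19.7% of all genes. That balance turned with library totals, under which 1 was called higher and 3 lower, and with RLE or upper-quartile scaling 3 were called higher and 2 lower. There CREBBP and EP300 rose 1.22-fold and 1.29-fold, PRKACA, the catalytic subunit of protein kinase A, rose 1.57-fold, and PIAS1, a SUMO ligase, fell 1.42-fold. Without single libraries of that experiment adjusted p reached 0.0792 for CREBBP, 0.0589 for EP300 and 0.0532 for PRKACA, and the called genes of the list numbered 2 or 3 in place of 5, while PIAS1 kept its call. The fifth called gene was KPNB1, a nuclear import receptor named here after its values were seen, at a log2 fold change of 0.21 ± 0.066 (adjusted p = 0.046), and its call was lost under 13 of 21 alternatives, at adjusted p up to 0.475. One of the genes that fell with anticarin-beta, likewise named after its values were seen, was ARID5A.

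Other proteins with an HMG box changed in both directions as well. The WNT effectors TCF7L1 and TCF7 fell 2.12-fold and 2.52-fold with anticarin-beta, and TCF7L2 rose 2.72-fold. Of 18 tested HMG-box proteins of other kinds, 9 were called higher and 6 lower, beside 34.9% and 38.0% of all genes. With library totals in place of the scaling factors 5 were called higher and 8 lower. TOX, a T cell factor, rose 11.3-fold, to 29.6 ± 2.20 CPM against 2.60 ± 0.661 CPM in vehicle libraries, and TFAM, which packages mitochondrial DNA, rose 1.88-fold. UBTF, the activator of ribosomal RNA genes, fell 2.45-fold, and SSRP1, a histone chaperone subunit, fell 1.94-fold. With CCT4 siRNA 3 of the 18 were called higher and 1 lower, beside 19.7% of all genes called. With library totals 0 were called higher there and 3 lower. With each experiment fitted alone 4 were called higher and 3 lower, and without control siRNA replicate 1 or 2 there was 1 in each direction.

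**Figure D4:**
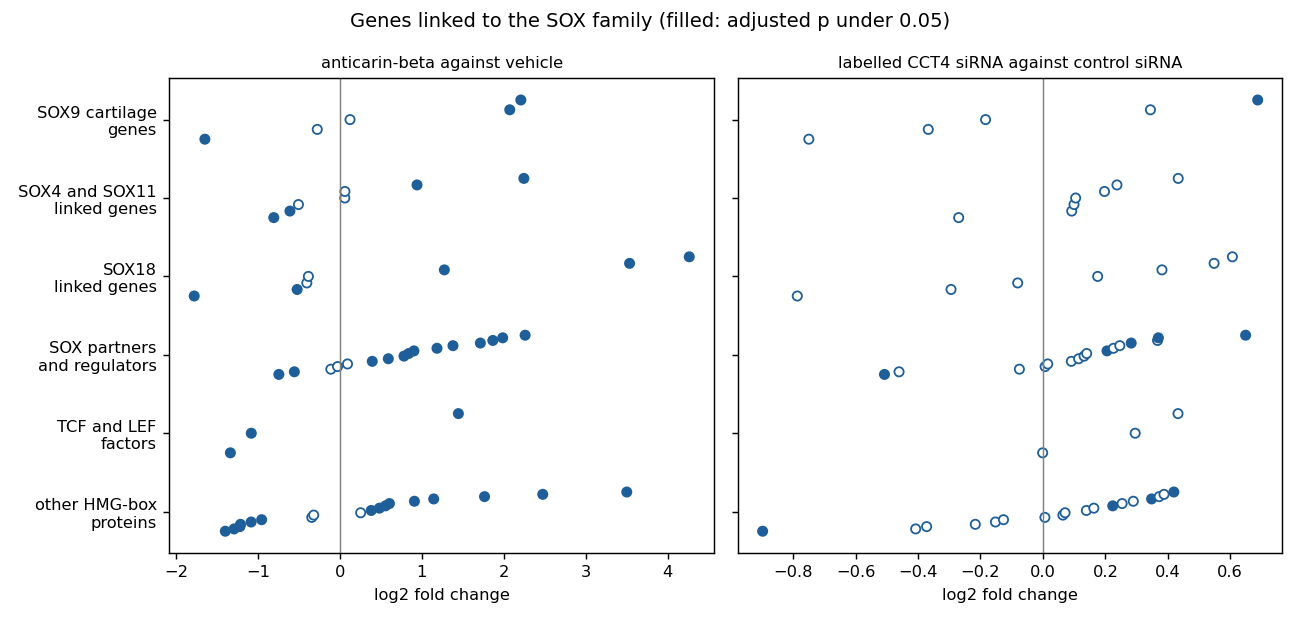
Fitted log2 fold changes (x axis, a separate scale in each panel) of the genes on the lists of SOX targets, SOX partners and other HMG-box genes, 1 point per tested gene and 1 row per list, for anticarin-beta against vehicle and CCT4 siRNA against control siRNA, filled for an adjusted p under 0.05. With anticarin-beta the partner list has 11 filled points above 0 and 2 below, while each list of targets has filled points on both sides. Over all genes 73.0% were called with anticarin-beta, 34.9% as higher and 38.0% as lower.

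Features of the genes were set beside their direction with anticarin-beta, and any link between them was not tested. The GC content of the representative transcript, that with the longest coding sequence, was 58.5% in SOX13, 62.0% in SOX12 and 69.4% in SOX18, which fell. Among the genes that rose it was 47.7% in SOX11, 49.3% in SOX6, 50.7% in SOX4, 51.0% in SOX9 and 61.7% in SOX15. The pentamer ATTTA, found in elements of unstable mRNAs, occurred 3.94 times per kb of the 3′ UTR in SOX9, 2.59 in SOX11, 1.71 in SOX18 and 1.504 in SOX4, with a median of 1.52 over 17421 coding genes. SOX12, SOX15 and SOX6 had none in the annotated 3′ UTR of their representative transcript, of 3352, 200 and 101 bases. In 3′ UTRs as short as those of SOX15 and SOX6 the absence says little. SOX5 and SOX13 had 1.07 and 0.62 per kb. Genes that rose and genes that fell with anticarin-beta are thus found on both sides of the median. With SOX15 and SOX6 left aside, SOX4 is the rising gene below it, and only just. SOX12 and SOX18 both lie on chromosome 20 and SOX9 and SOX15 both on chromosome 17, in each case far apart.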

How the data were processed

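The authors deposited raw read counts per gene for 12 RNA-seq libraries in 1 table, not normalized. The submitters' processing notes name STAR 2.5.2a, Subread and featureCounts 1.5.0, with build hg38, and the labels' protocols a stranded library kit. How counting treated strand and multiply mapped reads, and with which annotation, they do not say. Reads of overlapping genes may therefore be shared, and such genes are marked.

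Groups and replicate numbers came from the labels. The 9 members and all gene lists were chosen with earlier results of these data known. The quasi-likelihood test of edgeR 4.0.16 in R 4.3.3, two-sided, was run on the counts, with TMM scaling, 1 mean per group, 8 residual degrees of freedom and Benjamini-Hochberg adjustment over 17717 genes that passed filterByExpr (about 10 counts, 0.668 CPM, in 3 libraries). A gene is called at an adjusted p under 0.05. Fitted folds carry a prior count of 0.125. CPM and TPM were computed from the deposited counts, TPM with the length of all exons in GENCODE 29, which held 98.5% of the gene IDs.

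Every pair of replicates differed beyond counting noise (chi-square of 8.93 to 28.8 per degree of freedom), and each library was 1 sample. The test was checked on simulated counts in which few genes changed, equally in both directions. That check does not cover a comparison such as anticarin-beta against vehicle, in which 73.0% of all genes were called. Alternatives were other scalings, DESeq2 1.42.0, limma-voom (limma 3.58.1), other filters, each experiment alone, the replicate number as a block and leaving out each library. Counting intervals cover 95% of counting error only. Besides the members, the text names tested SOX genes, CCT4, up to 4 called genes per list and comparison with the smallest p and at least 5 CPM, and the 3 genes nearest in pattern to each member of at least 5 CPM, with a pseudocount of 0.5 CPM. A few genes that this rule names are not reported here.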

Additional observations from a re-analysis of the deposited data

How the results depend on the processing

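With anticarin-beta and in the difference between the responses, every tested SOX gene kept its direction and its side of the threshold under all alternatives run. In the siRNA experiment 215 of the values of single SOX genes under alternatives kept both, 9 lost the call and 6 gained one. The members called there numbered 1 in place of 2 with no low-count filter and 1 with the replicate block, and 1 to 3 without single libraries. The family genes called numbered 5 in place of 3 with library totals alone and 1 to 4 without single libraries. The SOX15 change in the libraries labelled CCT4 siRNA was 0.95 with the block (edgeR adjusted p = 0.0791) and 0.95 with no filter (adjusted p = 0.0547). SOX18 was called there with upper-quartile scaling (−0.68, edgeR adjusted p = 0.0485), library totals (−0.79, adjusted p = 0.0259) and each experiment alone (−0.67, adjusted p = 0.0327). SOX8 was called with library totals (−0.66, edgeR adjusted p = 0.0421). The labels do not say whether the replicate numbers pair the samples. Same-numbered libraries deviated from their group means with correlations from −0.0325 to 0.0253. No shared deviation was thus seen, which does not exclude pairing. The SOX15 change was 0.95 with the block and 0.96 in the main fit, so the lost call does not show a weaker effect.

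Library totals alone shifted the median of all genes to −0.48 with anticarin-beta, to −0.12 with CCT4 siRNA and to −0.38 in the difference. Under it the log2 change with anticarin-beta turned to −0.19 for COL1A2, −0.33 for MED12, −0.0067 for COL1A1, −0.038 for WHSC1, −0.024 for PRKACA, −0.14 for KRT18 and −0.36 for ADAM10, and the difference to −0.029 for CIC. EP300 and CREBBP lost their calls with CCT4 siRNA under it (edgeR adjusted p = 0.106 and 0.223). Depth limits SOX5, SOX6 and SOX18, which had 0 to 8 counts per library in at least 1 group.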

Other observations

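SOX30, a gene of male germ cells, had 9, 2 and 14 counts in anticarin-beta libraries and 0 in all 3 vehicle libraries. It was singled out after its values were seen. With 3 counts put in place of 0 over the vehicle group, the ratio of anticarin-beta to vehicle was 9.72 relative to library totals. Relative to the scaled library sizes it was 13.0. These ratios leave out the counting error of the 25 anticarin-beta counts and the spread between libraries, so they are not lower bounds. In the siRNA experiment it had 5, 3 and 3 counts in the libraries labelled CCT4 siRNA and 4, 6 and 0 counts in control siRNA libraries. The gene did not reach the minimum for a test.

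SOX9-AS1, an antisense transcript beside SOX9, had 3, 0 and 0 counts in anticarin-beta libraries and 3, 4 and 3 counts in vehicle libraries. It had 7, 6 and 2 counts in the libraries labelled CCT4 siRNA and 3, 8 and 6 counts in control siRNA libraries, where SOX9 itself was highest. The ratio of anticarin-beta to vehicle was 0.467 relative to the scaled library sizes, with a 95% counting interval of 0.0827 to 1.82.

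The 2 control groups also differed in level in several SOX genes. By mean CPM, control siRNA libraries held 2.12 times as much SOX13, 1.87 times as much SOX7 and 3.68 times as much SOX8 as vehicle libraries. Vehicle libraries held 2.97 times as much SOX18 as control siRNA libraries. The ranges of these 2 groups did not overlap for 55.9% of all genes.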
